A study of Mus musculus with 6 samples.

Results

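The 30 genes described here encode the contractile apparatus of smooth muscle and the proteins that anchor, regulate and fuel it. They were taken by symbol from the deposited coverage tables of mouse ileum, and all 30 of them were listed in both tables, among 21950 gene symbols in all. The wild type group held 3 C57BL/6 mice and the TLR4ΔIEC group held 3 C57BL/6 mice, all 24 weeks old and with no treatment given in the labels. TLR4ΔIEC mice lack Toll-like receptor 4 (Tlr4), the sensor of bacterial lipopolysaccharide, conditionally in intestinal epithelial cells, so muscle cells are not the labelled target. The labels do not say which promoter drives the deletion or whether the wild type mice carried a floxed allele or Cre.

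Each mouse gave 1 whole-transcriptome library of ileal RNA depleted of ribosomal RNA, but the values used here are 1 pooled column of average coverage per genotype. The spread over mice is therefore unknown, no test was run, and every difference described has no replicate check. The labels also give the libraries of each genotype a code of their own, so genotype and whatever that code stands for cannot be told apart. The columns listed 22724 and 22687 entries, with sums of 699800 and 698473 reads per base. Tlr4 itself was at 2.90 units in the wild type column and 2.24 units in TLR4ΔIEC, over the whole transcript and all cells of the ileum, of which the deleted cells are only a part, so it is a weak check of the labels. In whole tissue, a different number of muscle cells and a different amount of RNA per muscle cell cannot be told apart.

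Smooth muscle of the gut wall contracts when calcium, bound to calmodulin, activates myosin light chain kinase, which phosphorylates the regulatory light chain so that myosin can pull on actin. Myosin phosphatase reverses the step. Force passes from actin through dense bodies and membrane plaques, and a desmin network holds the cell together. Serum response factor and its coactivator myocardin switch on many of these genes through a DNA element called the CArG box. The ileum holds such muscle in its inner circular and outer longitudinal layers, in a thin layer under the mucosa and in its blood vessels.

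The 3 exact CArG boxes found in the promoter windows of these genes, and the altered ones of the smooth muscle actin gene, are shown because serum response factor is known to bind this element. Windows ran from 250 bases before each RefSeq start (GRCm38.p6, the assembly behind mm10), and 26 of the 30 genes had one in the table used. The element reads as a CArG box on both strands, so 1 search covered both. The capitals mark the match within 10 bases on each side. The boxes of Myl9, Vcl and Ldb3 lay outside annotated genes. Those of Acta2 (minus strand, at 84 and 34 bases before the listed start) have 1 inner A or T replaced by G or C, and both lie in an exon of Acta2 in GENCODE.
Myl9, chr2:156775293-156775322, plus strand: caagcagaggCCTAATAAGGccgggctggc
Vcl, chr14:20929161-20929190, plus strand: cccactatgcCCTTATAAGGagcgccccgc
Ldb3, chr14:34588697-34588726, minus strand: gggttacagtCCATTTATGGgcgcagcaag
Acta2, chr19:34255438-34255467, minus strand: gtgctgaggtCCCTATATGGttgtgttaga
Acta2, chr19:34255388-34255417, minus strand: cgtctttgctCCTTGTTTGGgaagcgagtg
An exact box was found in 3 of the 26 genes with a window (11.5%), against 1.62% of the 27025 genes in the table. A box with 1 inner base changed was found in 6 of the 26 (23.1%), against 8.33%. A match in these letters is a description of the window and not a bound site. The genes with an exact box did not share 1 ratio: the log2 ratios of TLR4ΔIEC over wild type were 0.43 for Vcl, 0.10 for Myl9 and 0.08 for Ldb3.

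No contractile gene differed 2-fold between the columns, and most had a ratio a little above 0, that is, higher in TLR4ΔIEC. Levels are given in units, coverage per base after both columns were brought to 1 scale and to a mean total of 1000000. Log2 ratios are of units plus a pseudocount of 1. Of the 30 genes, 24 had a mean of at least 5 units. Of these 24, 17 had a log2 ratio above 0 (70.8%), against 52.7% of the 8888 genes at that level, and their median was 0.10, against 0.03 for all 8888. The number above 0 was 19 with column totals, where 58.8% of all genes lay above 0, and 19 with quantile normalization (53.7% of all genes). It was 20 when totals left out the 50 highest genes, where 62.1% of all genes lay above 0. None of the 24 was 2-fold higher or lower. Of the 8888, 1.29% passed the 2-fold mark upwards and 2.79% downwards, so none among 24 lies near the share over all genes. Only Mylk was at least 1.5-fold higher, against 6.57% of all genes, and none was at least 1.5-fold lower, against 10.2%. Over all 30 genes, 20 lay above 0 (66.7%), against 10984 of the 21950 genes without the filter, and the median was again 0.10. Mylk and Sync were then at least 1.5-fold higher, against 5.19% of all genes, and no member was 1.5-fold lower, against 6.90%. No member reached 2-fold in either direction without the filter, against 1.01% of all genes upwards and 1.80% downwards. The summed level of the 30 was 2041 units in the wild type column and 2248 units in TLR4ΔIEC, a ratio of 1.10.

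A trend in the whole data touches that median. Over 8800 of the 8888 genes with an annotated transcript, the log2 ratio was lower in transcripts richer in G and C (Spearman's rho -0.34 across genes, which share both columns and are not independent replicates). Over the 24 contractile genes the rho was -0.32. Between transcript length and the log2 ratio, the rho was 0.16 over the 8800 genes and 0.36 over the 24. After a fit that took out both GC content and transcript length, the median of the 24 was 0.26, with 20 above 0 (83.3%). Under the same fit the median of the 8800 genes was 0.05, with 55.4% above 0. The part of GC content or length in any single ratio below was not tested beyond that fit.

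**Figure D1:**
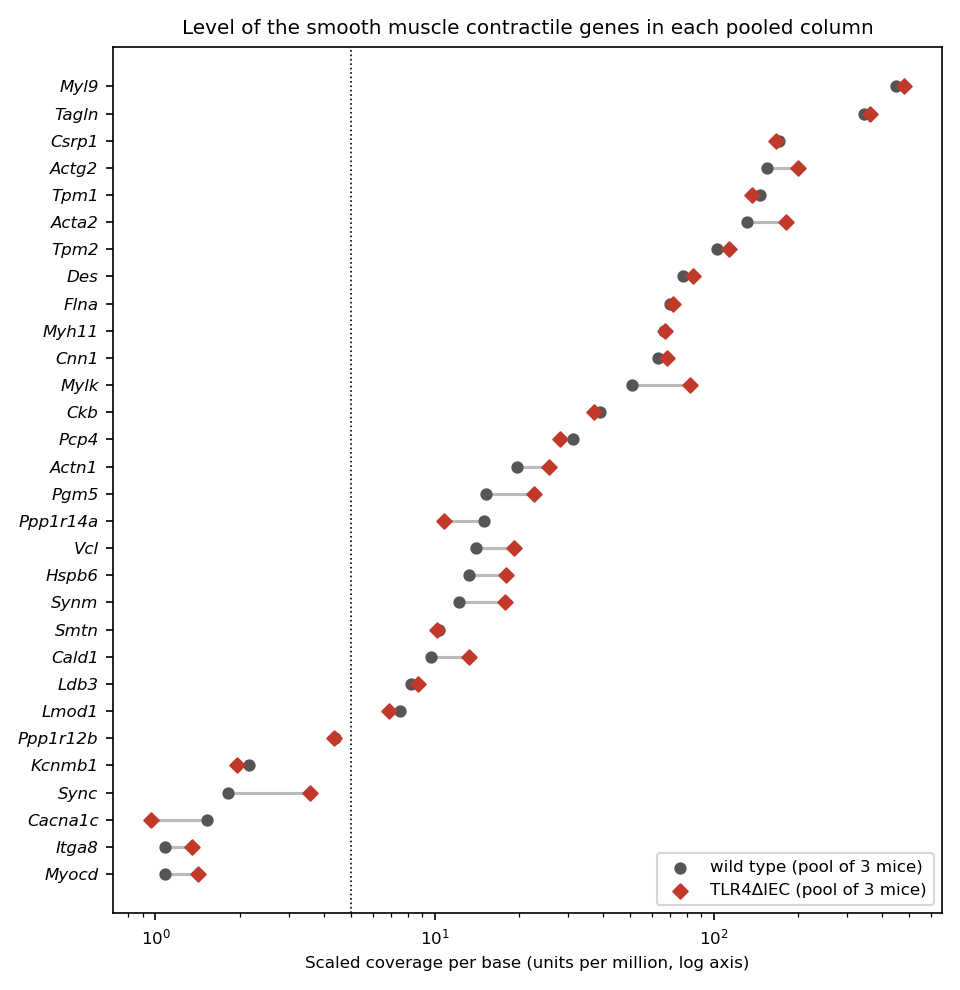
Scaled coverage per base (units, log axis) of each of the 30 genes in the wild type column (grey circles) and the TLR4ΔIEC column (red diamonds), each a pool of 3 mice, ordered by wild type level, with the filter of 5 units as a dotted line. The genes run from Myl9 at 451 and 482 units to Myocd at 1.08 and 1.42 units, and most pairs of points lie close together.

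The order of levels was almost the same in both columns. Coverage is per base, but the rule behind the averaged length is not given, and the recovered length can differ from the annotated transcript (643 against 2035 bases for Acta2, 194 against 2098 for Tpm2). Levels set between genes, and ratios of one gene to another, carry that doubt. Over the 30 genes, Pearson's r between the log10 levels in the 2 columns was 0.99, as a description of genes measured in the same 2 pools. No gene moved by more than 4 places, and 13 kept their place. Myl9, the regulatory light chain of smooth muscle myosin, came first, followed by the actin-binding protein transgelin (Tagln). The coding sequence of Myl9 is identical to that of its relative Myl12b (587 and 586 units) at 86.4% of aligned bases. Their longest identical run is 35 bases, and reads inside such runs cannot be told apart, so the level of Myl9 carries that doubt too. The lower end held the channel subunits Kcnmb1 and Cacna1c, the integrin Itga8 and the coactivator Myocd. The size of the ratio did not go with the level (Spearman's rho 0.06 over 30 genes).

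The smooth muscle actins, which form the thin filaments, were both higher in the TLR4ΔIEC column. Acta2 (chromosome 19, 34241090 to 34255590, minus strand, mm10), found in vascular and visceral muscle, was at 132 units in the wild type column and 182 units in TLR4ΔIEC, a log2 ratio of 0.46. Actg2 (chromosome 6, 83512905 to 83536265, minus strand), typical of visceral muscle, was at 155 and 199.8 units, a log2 ratio of 0.37. Among all genes at the filter, these ratios lay at the 88.6th and 82.7th percentile. Within a column, where scaling plays no part, Actg2 coverage was 1.17 times that of Acta2 in wild type and 1.10 times in TLR4ΔIEC, so the balance between the isoforms hardly differed.

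Actin genes are close relatives, and the beginnings of their coding sequences are shown to show how the isoforms can be told apart. The runs are from GENCODE transcripts, on the minus strand, and capitals mark bases that differ from, or have no counterpart in, the other gene.
Acta2, chr19:34252494-34252553: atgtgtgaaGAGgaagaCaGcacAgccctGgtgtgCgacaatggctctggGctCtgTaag
Actg2, chr6:83527385-83527441: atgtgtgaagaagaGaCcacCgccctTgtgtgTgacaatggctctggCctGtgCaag
Over the whole coding sequence the pair was identical at 84.2% of aligned bases, and their longest identical run was 29 bases. The longest run Acta2 shared with a nonmuscle actin was 47 bases with Actb and 56 bases with Actg1. Reads that fall inside such runs cannot be told apart, and the read length is not given in the sources used here. Actb, far more abundant at 2704 and 2709 units, had a log2 ratio of 0.00, and Actg1 (757 and 794 units) one of 0.07. Acta1, the skeletal muscle actin, stood at 17.7 and 14.5 units, a log2 ratio of -0.27.

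The heavy chain of the motor was equal in both columns, and the regulators of the motor differed among themselves. Myh11, the heavy chain of smooth muscle myosin and a defining marker of the cell type, was at 66.6 units in the wild type column and 67.0 units in TLR4ΔIEC, a log2 ratio of 0.01. Myl9 was at 451 and 482 units, a log2 ratio of 0.10. The ratio of Myl9 was 0.26 with quantile normalization and 0.32 with the GC and length trend removed. Mylk, the kinase that phosphorylates Myl9, was at 51.1 and 82.1 units, a log2 ratio of 0.67. Mylk (chromosome 16, 34745210 to 35002420, plus strand) thus had the highest ratio of the 24 genes, at the 95.5th percentile of all genes. The same gene also gives rise to a longer kinase made in other cells, the epithelium included. Coverage averaged over the gene cannot assign the ratio to any 1 product. The ratio of Mylk was 0.67 with the GC and length trend removed as well. Its averages, however, rested on no common recoverable length in the 2 columns.

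The members tied to myosin phosphatase were Ppp1r14a, lower in the TLR4ΔIEC column, and Ppp1r12b, equal in both columns. Ppp1r14a, an inhibitor of myosin phosphatase also called CPI-17, was at 15.04 units in the wild type column and 10.8 units in TLR4ΔIEC, a log2 ratio of -0.44 and the lowest of the 24. Behind these averages stood 5455 and 4105 bases of reads, with 531 bases as the recovered length. Its transcript was the richest in G and C among the 24 (61.7%), and after removal of the trend its ratio was -0.01. Ppp1r12b, a targeting subunit of myosin phosphatase, was weakly covered and equal at 4.39 and 4.36 units. Mylk coverage was 0.767 times that of Myh11 in wild type and 1.23 times in TLR4ΔIEC. Ppp1r12b coverage was 0.0859 times that of Mylk in wild type and 0.0531 times in TLR4ΔIEC.

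**Figure D2:**
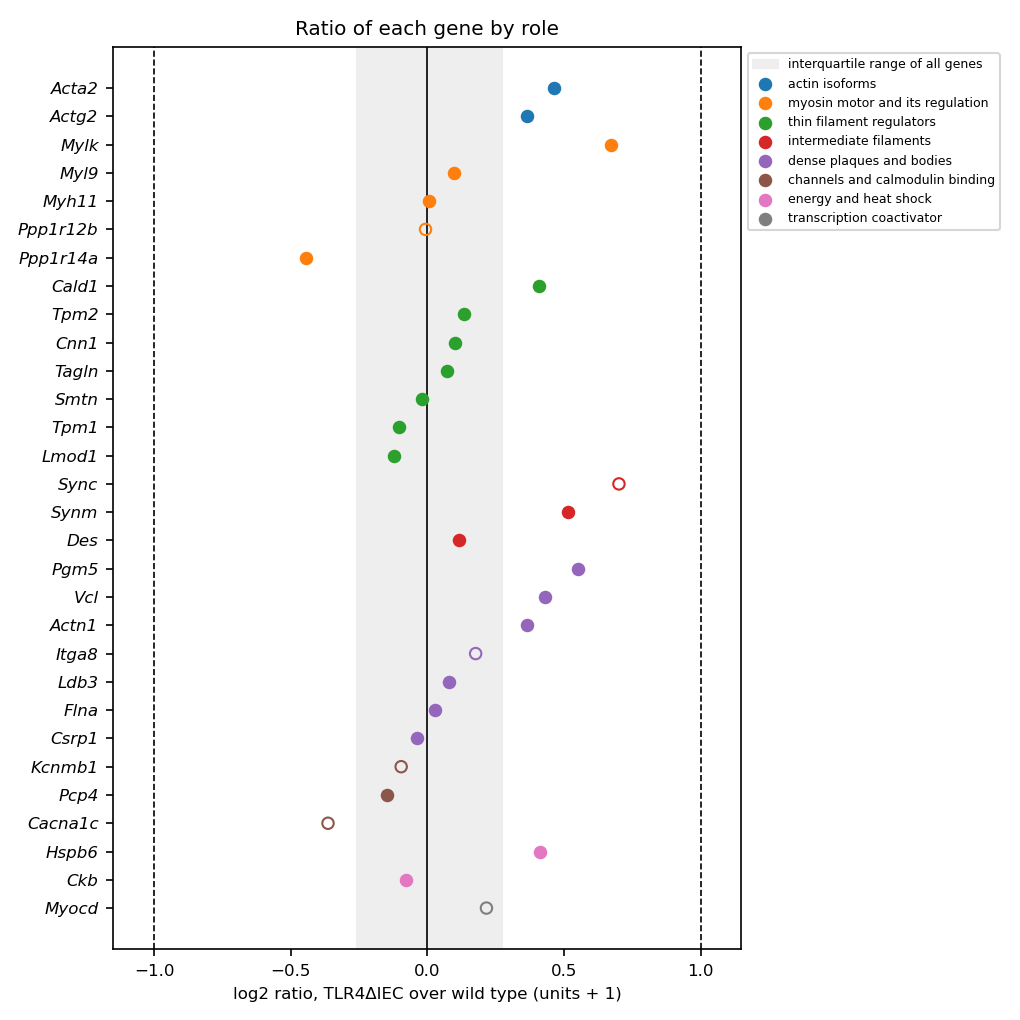
Log2 ratio of TLR4ΔIEC over wild type (units plus 1) for each gene, coloured by role, with open circles for genes under 5 units, the interquartile range of all genes at the filter in grey and 2-fold differences as dashed lines. No gene reaches a 2-fold difference. Mylk (0.67) and Ppp1r14a (-0.44) mark the ends among the genes at the filter.

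Most proteins that bind and steady the thin filament had ratios near 0. Of 7 such genes, 4 lay above 0 and 3 below, with a median log2 ratio of 0.07, and 6 lay within 0.25 of 0. Among all genes at the filter, 52.7% lay above 0 and 47.3% within 0.25 of 0. Tagln was at 345 units in the wild type column and 362 in TLR4ΔIEC, a log2 ratio of 0.07. An antisense transcript, Gm48529, covers 62.4% of the exon bases of Tagln. Calponin (Cnn1), which restrains the myosin ATPase, was at 63.2 and 67.9 units, a log2 ratio of 0.10. The ratio of Cnn1 to Tagln within a column was 0.183 in wild type and 0.187 in TLR4ΔIEC, the closest match of all the ratios computed.

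The tropomyosins, which lie along the actin groove, were at 147 and 137 units for Tpm1 (log2 ratio -0.10) and at 103 and 113 units for Tpm2 (0.13). Leiomodin (Lmod1), which nucleates actin, was at 7.53 and 6.85 units (-0.12). Smoothelin (Smtn) was at 10.4 and 10.2 units (-0.02), and 16.3% of its exon bases overlap Gm11946 on the opposite strand. Tpm1 and Smtn crossed 0 under other scalings. All 4 ratios lie within the interquartile range of all genes, from -0.26 to 0.27. Caldesmon (Cald1), which blocks myosin binding to actin and also exists in a nonmuscle form, was the exception at 9.73 and 13.2 units (0.41). Cald1 also had the lowest GC content of the 24 (44.2%), and its ratio was 0.30 with the trend removed. In the same fit Tagln was at 0.16, Cnn1 at 0.14, Tpm2 and Smtn at 0.26, Lmod1 at -0.06 and Tpm1 at -0.11.

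The 3 intermediate filament genes were all higher in the TLR4ΔIEC column, by unequal amounts. Of all genes, 52.7% at the filter and 10984 of the 21950 without it lay above 0. Desmin (Des), the main filament protein of muscle, was at 77.7 and 84.2 units, a log2 ratio of 0.12. Synemin (Synm), which links desmin filaments to membrane plaques, was at 12.2 and 17.9 units, a log2 ratio of 0.51. With the GC and length trend removed, Des was at 0.28 and Synm at 0.46. Syncoilin (Sync) was at 1.81 and 3.57 units, a log2 ratio of 0.70, on 2523 and 5214 bases of reads. It was thus the highest ratio of all 30 genes but under the filter, and 27.3% of its exon bases are shared with Rbbp4 on the opposite strand. Whether counting used strand is not given in the sources used here. Synm coverage was 0.157 times that of Des in wild type and 0.212 times in TLR4ΔIEC.

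Genes of dense plaques and dense bodies, where actin meets the membrane, fell into a higher and an even set. Phosphoglucomutase 5 (Pgm5, aciculin), a structural protein of adhesions, was at 15.3 and 22.8 units (log2 ratio 0.55). Vinculin (Vcl), which couples integrins to actin, was at 14.1 and 19.3 units (0.43), although 25.5% of its exon bases overlap Ap3m1 on the opposite strand (11.9 and 13.0 units). The crosslinker alpha-actinin 1 (Actn1) was at 19.7 and 25.7 units (0.37). These 3 were higher in TLR4ΔIEC.

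The other plaque genes hardly differed. Filamin A (Flna), the large actin crosslinker, was at 69.8 units in the wild type column and 71.3 in TLR4ΔIEC (0.03). The LIM protein Csrp1 was at 171 and 167 units (-0.04, but above 0 under 3 of the other scalings), and the PDZ-LIM protein Ldb3 at 8.23 and 8.75 units (0.08). With the GC and length trend removed, Csrp1 was at 0.12 and Ldb3 at 0.03. Itga8, the integrin alpha 8 subunit, was near the bottom of the range at 1.08 and 1.35 units (0.18).

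All 3 genes of ion channels and calmodulin binding had ratios below 0, under the 4 other scalings as well, but only Pcp4 reached the filter. Without the filter, 10966 of the 21950 genes lay below 0. Pcp4, a small calmodulin-binding protein, was at 31.3 and 28.2 units (-0.15). It shares 23.7% of its exon bases with Igsf5 on the same strand, which had a like ratio (-0.13), and reads in the shared exons cannot be told apart. Kcnmb1, the muscle subunit of the large potassium channel that relaxes the cell, was at 2.16 and 1.96 units (-0.10). Cacna1c, the pore of the L-type calcium channel through which calcium enters, was at 1.53 and 0.963 units (-0.36), and no length common to both averages was recovered. Both channels are too weakly covered for these differences to be read.

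The remaining members had other tasks. Creatine kinase B (Ckb), which buffers ATP, was at 39.3 and 37.1 units (-0.08), and crossed 0 when totals left out the 50 highest genes. The small heat shock protein Hspb6, linked to smooth muscle relaxation, was at 13.3 and 18.1 units (0.41). With the GC and length trend removed, Ckb was at 0.26 and Hspb6 at 0.59. Myocd, the coactivator of the whole programme, was at 1.08 and 1.42 units (0.22), next to Itga8 at the low end of the 30.

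The ratios of the 24 were spread from -0.44 to 0.67. Of the 24 genes, 9 had a log2 ratio above 0.25, against 27.1% of all genes at the filter, and 14 lay within 0.25 of 0, against 47.3%. One, Ppp1r14a, lay below -0.25, against 25.6%. With the GC and length trend removed, 14 of the 24 lay above 0.25, against 28.2% of all genes under that fit, and 0 lay below -0.25, against 21.4%. The 9 genes above 0.25 without that fit were Acta2, Actg2, Mylk, Cald1, Synm, Actn1, Vcl, Pgm5 and Hspb6. Their transcripts had a median GC content of 51.4%, against 53.6% for the 14 even genes. The median transcript length was 3734 bases for the 9 and 2635.5 bases for the 14. By breadth of expression, the 7 widely expressed genes (Flna, Tpm1, Cald1, Ckb, Csrp1, Actn1 and Vcl) had a median of 0.03, and the 17 muscle-enriched genes at the filter one of 0.10. With the trend removed these medians were 0.26 and 0.26.

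**Figure D3:**
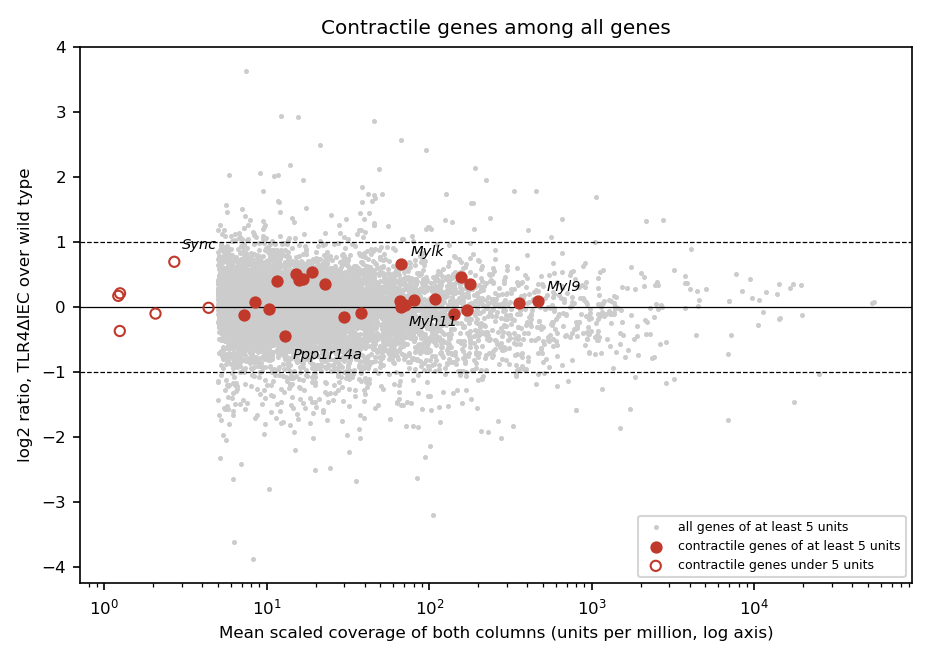
Log2 ratio of TLR4ΔIEC over wild type against the mean level of both columns (units, log axis) for all 8888 genes of at least 5 units (grey) and for the contractile genes (red, open where under 5 units), with 2-fold differences as dashed lines. The contractile genes at the filter lie inside the cloud, between -0.44 and 0.67. The open circles lie to the left of the cloud, where no other genes are drawn, with Sync the highest at 0.70.

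Pairs of contractile genes compared within a column need no scaling between columns. Myh11 coverage was 0.506 times that of Acta2 in wild type and 0.368 times in TLR4ΔIEC. Tpm2 coverage was 0.701 times that of Tpm1 in wild type and 0.828 times in TLR4ΔIEC. The weakly covered pair Kcnmb1 and Cacna1c stood at 1.42 and 2.04. Of the 8 ratios computed, those of Mylk to Myh11 (1.60-fold higher in TLR4ΔIEC) and Ppp1r12b to Mylk (0.619-fold) differed most, and both contain Mylk.

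**Figure D4:**
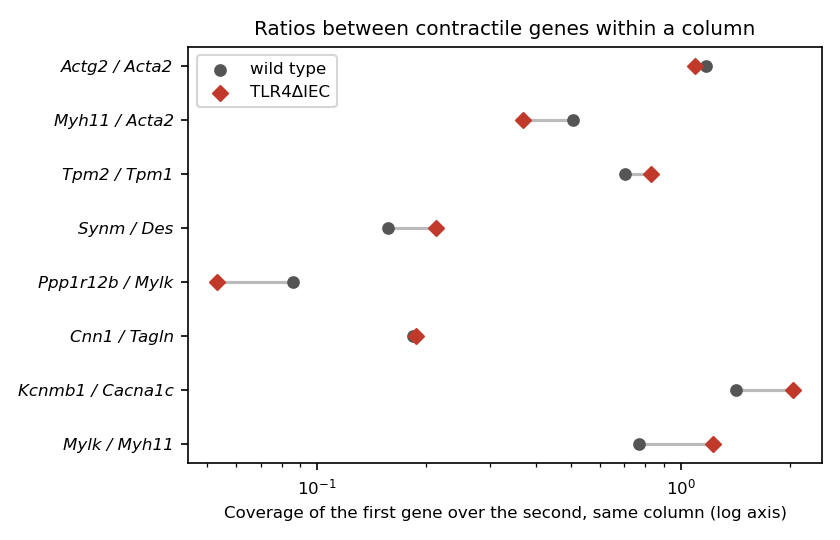
Coverage of the first gene over that of the second within the same column (log axis), in wild type (grey circles) and TLR4ΔIEC (red diamonds), each a pool of 3 mice. Cnn1 over Tagln is nearly the same in both (0.183 and 0.187), while Mylk over Myh11 goes from 0.767 to 1.23.

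Other genes of contraction and relaxation went in both directions. Beside the counts in these lists, 52.7% of all genes at the filter lay above 0. The shares of all genes at least 1.5-fold higher and lower were 6.57% and 10.2%. Of 14 genes that signal for contraction, 11 reached the filter, with 4 above 0, none of them 1.5-fold higher. The only one past 1.5-fold downwards was the calmodulin gene Calm3 (378 and 245 units, -0.62). The phosphatase catalytic subunit Ppp1cb was at 0.46 and the GTPase Rhoa at 0.34. Of 10 genes of relaxation and calcium removal, 5 reached the filter and all 5 lay above 0 (median 0.21), with the calcium pump Atp2a2 at 0.46 and the cyclic GMP phosphodiesterase Pde5a at 0.21. Of 9 transcription factors around serum response factor, 6 reached the filter and 4 lay above 0, with Srf itself at 23.3 and 17.8 units (-0.37) and Klf4, which is also an epithelial factor, at -0.67.

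Muscle-enriched genes outside the 30 went in both directions too. Of 21 such genes, 12 reached the filter and 7 of them lay above 0. The share of all genes at the filter above 0, for this and the following lists, was 52.7%. The ratios of the 12 ran from -0.49 to 0.74, with a median of 0.09, close to that of the 30. Caveolin 1 (Cav1), which shapes membrane pits in muscle and vessels, was at 15.4 and 26.4 units (0.74), and Fhl1, a LIM protein of muscle, at 32.5 and 22.9 units (-0.49). Of 11 integrin adhesion genes, 7 reached the filter and 5 lay above 0, among them the integrin subunit Itgb1 (42.6 and 70.5 units, 0.71). Of 14 nonmuscle actin and myosin genes, 13 reached the filter and 10 lay above 0. That list held 2 relatives of members at opposite ends, the calponin Cnn3 at 0.84 and the transgelin Tagln2 at -1.11.

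Markers of tissue around the muscle were set beside these values. All 11 epithelial genes were at the filter, with 4 above 0, against 52.7% of all genes at that level. Their median was -0.03 (0.04 to 0.08 under 3 of the other scalings), and their summed level was 9156 units in the wild type column and 8710 in TLR4ΔIEC. Cldn7, at -0.65, was the one past 1.5-fold, where 10.2% of all genes were at least 1.5-fold lower. Cdx1 was at -0.41, Epcam at -0.40, Vil1 at -0.01 and Krt19 at 0.43. All 6 adipose genes lay below 0, where 10966 of the 21950 genes without the filter did. Their summed level was 65.3 units in the wild type column and 20.9 in TLR4ΔIEC. The part of unequal tissue composition in the contractile ratios was not tested. Of 14 striated muscle genes, 2 reached the filter, Acta1 and Ckm, the myosins Myh1, Myh2, Myh4, Myh6 and Myh7 were all under 1 unit, and the summed level was 28.5 and 26.7 units. The smooth muscle markers Acta2, Actg2, Myh11, Cnn1, Des and Tagln lay between 63.2 and 362 units.

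**Figure D5:**
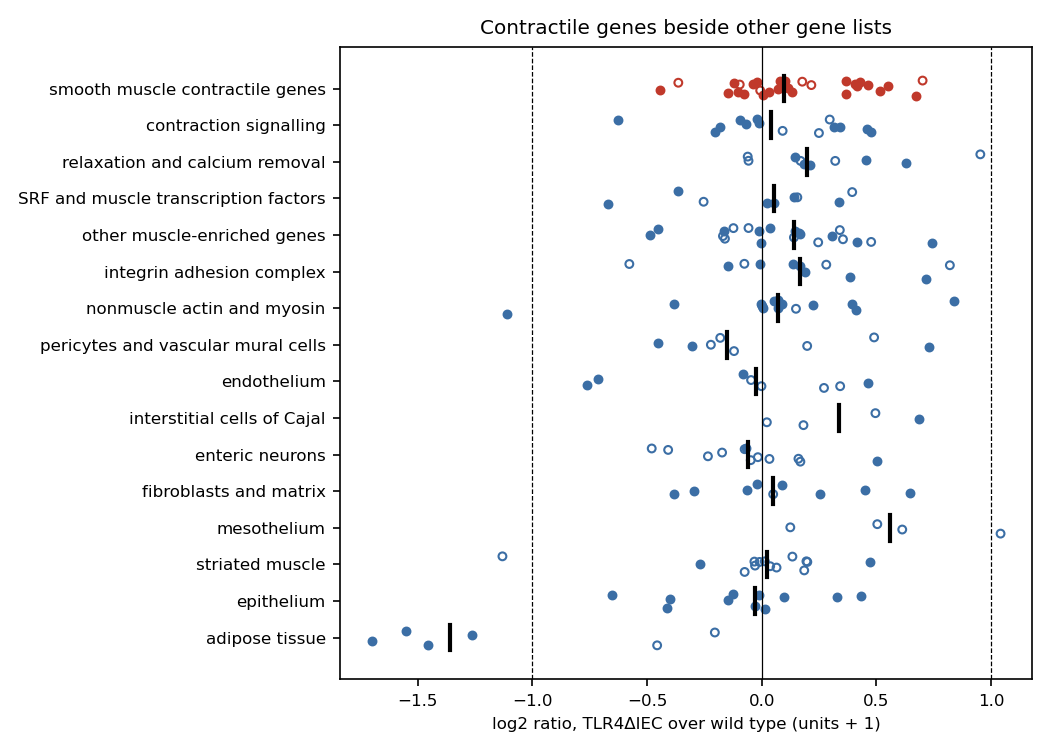
Log2 ratio of TLR4ΔIEC over wild type for each gene (points, open where under 5 units) of the contractile genes (red) and of 15 other lists (blue), with the median of all members as a black bar and 2-fold differences as dashed lines. The contractile genes centre at 0.10, and the adipose genes, at a median of -1.36, stand apart.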

How the data were processed

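Ileal total RNA of 6 mice, 3 per genotype, was rRNA-depleted and made into whole-transcriptome libraries with the Ion Total RNA-Seq kit, per the labels' protocols. TopHat2 2.0.10, Bowtie2 2.1.0 and mm10 are named, without roles, per the submitters' processing notes. The deposited unit is average coverage per RefSeq entry, per the file headers, in 1 column for each genotype that the labels tie to all 3 mice. The sources used here do not give what computed it.

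The 22001 entries listed in both columns were brought to 1 scale with the median ratio between columns (factor 1.05), then set so that both totals average 1000000 units. They gave 21950 symbols, a repeated symbol being represented by its highest entry. A pseudocount of 1 was added before log2 ratios. The filter of 5 units equals 3.41 reads per base (wild type) or 3.58 (TLR4ΔIEC). Read length is unknown, so no counting intervals are given. The length behind an average was recovered as the smallest one, up to 20000 bases, giving whole bases in both columns. It can be a divisor or a multiple of the true length, and 23 of the 30 genes had one. GC content and length came from the longest GENCODE vM21 transcript matched by RefSeq accession. Coordinates and exon overlaps are from the same annotation, and promoters from RefSeq (GRCm38.p6).

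The members and lists were chosen with earlier results of these data known. Genes named outside the 30 were, per list, up to 3 with the largest absolute ratio among those with a mean of at least 20 units, plus Actb, Actg1, Epcam, Vil1 and Tlr4. Others, such as Acta1, Igsf5 and the striated muscle myosins, were named after their values were seen, as the Mylk to Myh11 ratio and the bands at 0.25 were chosen. The enteric glia list is not reported here. Scaling, ratios and length recovery were tested on simulated data. Alternatives were 4 scalings, 2 pseudocounts, 3 filters, the mean over entries, genes of equal length and, added after the data were seen, removal of the GC and length trend. Python 3.11.15, numpy 2.4.6, pandas 2.3.3, scipy 1.17.1, Biopython 1.88 and matplotlib 3.10.9 were used.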

Additional observations from a re-analysis of the deposited data

How the results depend on the processing

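No contractile gene differed 2-fold under the 4 other scalings, the other pseudocounts, filters and entry rule, equal length or removal of the GC and length trend. In the main setting only 1.29% of all genes at the filter passed that mark upwards and 2.79% downwards, so this does not set the members apart. The median log2 ratio of the members at the filter was 0.20 when totals left out the 50 highest genes, 0.24 with quantile normalization and 0.26 with the trend removed. In the same order, the muscle-enriched genes were at 0.20, 0.26 and 0.26. The widely expressed genes were at 0.13 without the 50 highest genes, at 0.20 with equal recoverable length, at 0.26 with the trend removed and at -0.04 with a filter at 20 units, against 0.03. The median of all genes was 0.12 when the 50 highest were left out of the total, 0.04 with quantile normalization and 0.05 with the trend removed, so the members lay 0.08 above it in the first and 0.20 above it in the second, against 0.07. The number at least 1.5-fold higher was 2 with column totals, at a filter of 1 unit, without a filter and with the trend removed, and 3 without the 50 highest genes. Of all genes, 5.19% passed that mark without a filter and 7.07% with the trend removed. For the other settings named here that share was not computed. The number was 0 among genes of equal recoverable length, since Mylk has no such length. A filter at 20 units left 15 members, 11 of them above 0, against 47.0% of all genes at that level. The lower count follows from fewer genes. The cause of the other shifts was not tested. Of the 24 members at the filter, 20 kept their sign under the 4 other scalings, of which 3 shift all genes alike. The other 4, Tpm1, Smtn, Csrp1 and Ckb, lay near 0 and crossed it, and 3 members changed sign with the trend removed. No paired analysis was possible because each genotype has 1 pooled column. For the same reason no mouse could be left out. Coverage of the 6 members under 5 units is low and no counting interval is given, so their values are not treated as separated.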

Other observations

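Beside the sign counts in these small and mostly weakly covered lists, 10984 of the 21950 genes without the filter lay above 0. All 4 genes of the interstitial cells of Cajal, the pacemakers of gut muscle, lay above 0 (median 0.34). The receptor Kit, the only one at the filter, was at 6.82 units in the wild type column and 11.6 units in TLR4ΔIEC (log2 ratio 0.69). Mesothelial genes, which mark the outer serosal lining, also all lay above 0 (median 0.56), but none of the 4 reached the filter, and their summed level was 3.43 and 7.85 units. Enteric neuron genes had a median of -0.06 over 12 genes, with 4 above 0, and a median of 0.03 when totals left out the 50 highest genes. The neuropeptide gene Vip, at 13.4 and 19.5 units, was at 0.50. Kit and Vip were named after their values were seen.

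Of 8 pericyte genes 3 lay above 0, with a median of -0.15. Without the filter, 10984 of the 21950 genes lay above 0, for this and the next 2 lists. At the filter were Rgs5 (39.0 and 65.4 units, 0.73), Kcnj8 (-0.31) and Pdgfrb (-0.45), with a median of -0.31. Of 8 endothelial genes 3 lay above 0, with a median of -0.02, which was 0.02 with column totals. The 4 at the filter had a median of -0.40, with Pecam1 at 0.46, Plvap at -0.08, Cldn5 at -0.71 and Egfl7 at -0.76. Fibroblast and matrix genes had 5 of 9 above 0 and a median of 0.05, with decorin (Dcn) at 0.65, dermatopontin (Dpt) at -0.07 and gelsolin (Gsn) at -0.38. All of these are values of 2 pooled columns, with no replicate check. Except for Rgs5, the vascular genes were named after their values were seen.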
